A study of Mus musculus with 10 samples.

Results

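Open chromatin was examined at 6 genes of the Krüppel-like factor (KLF) family, Klf1, Klf2, Klf3, Klf6, Klf10 and Klf13, in mouse G1E-ER4 cells. A gene's locus was its annotated span with 50 kb on either side, and every ATAC-seq peak summit in that interval was taken. The 6 loci held 204 of the 146939 summits of the series, which fell into 39 of 28981 open regions. A region is a group of overlapping windows of 501 bp centred on the summits of all 10 libraries. Of the 39 regions, 12 reached within 1 kb of a protein-coding transcript start of the KLF gene itself, 6 did so for a neighbouring gene, all at Klf1, and 21 were distal, away from any such start.

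ATAC-seq marks accessible DNA by inserting sequencing adaptors with the Tn5 transposase. The G1E-ER4 line was cloned from G1E erythroid cells, which have no Gata1, and carries a transgene for a GATA1-estrogen receptor fusion protein that is always made and is switched on by hormone. Every group thus shared the Gata1 loss and the transgene and differed in the hours of β-estradiol. Untreated cells (0 h) were compared with cells kept in 1e-07 M β-estradiol for 2, 6, 12 and 24 h, with 2 libraries per time point from about 50000 cells each. All findings therefore concern 1 clonal line. The study describes its ATAC-seq of these cells as a pair of independent experiments, and the labels do not say more on how the 2 libraries of a time point were made.

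KLF proteins carry 3 zinc fingers at the C terminus and bind GC-rich boxes and the CACCC box. Klf1 is the erythroid activator of β-globin and of many red cell genes. Klf3 is a repressor that is itself under the control of KLF1 in erythroid cells. Klf2 is best known from endothelium and T cells and also takes part in embryonic globin expression. Klf6 and Klf10 are widely expressed, the latter being induced by TGF-β, and Klf13 is known from lymphocytes and erythroid cells.

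The lists held 10698 to 19859 peaks, and the 6 loci received 1.2 to 1.69 summits per 1000 peaks. Read depth is unknown, so an unlisted region is only one in which no peak was called, and the 24 h replicate 2 list was the shortest. Each peak is given below by the percentile of its score within its own list, where 100 is the strongest peak. Promoters of the erythroid genes Epor and Tfrc were listed in all 10 libraries, whereas those of Hbb-bt, Hba-a1 and Alas2 were in none. The other 5 erythroid genes examined were intermittent, with Tal1 in 2 libraries, Gfi1b in 4, Ldb1 in 6, and Nfe2 and Lmo2 in 7 each. Gfi1b was gained at 6 h and Lmo2 lost at 12 h, states of 228 and 65 of all 21827 protein-coding genes. Reads with several genomic positions had been dropped, which bears on duplicated genes such as Hba-a1, and its part was not tested. Of 12 genes marking T, B, myeloid and fibroblast cells, 10 had no listed promoter, Col1a1 was listed in 8 libraries and Pdgfra in 3. Like Gfi1b, Pdgfra was gained at 6 h.

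Sequences of regions on which the results turn are shown first, as the median summit with 100 bases on either side, in the direction of the gene's transcription, from GRCm38 (mm10). Capitals mark matches on either strand to the CACCC box, searched as CCNCNCCC, and to the GATA motif. The latter was searched as AGATAA and, separately, as TGATAA.

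Klf6 promoter, chr13:5861220-5861420, plus strand: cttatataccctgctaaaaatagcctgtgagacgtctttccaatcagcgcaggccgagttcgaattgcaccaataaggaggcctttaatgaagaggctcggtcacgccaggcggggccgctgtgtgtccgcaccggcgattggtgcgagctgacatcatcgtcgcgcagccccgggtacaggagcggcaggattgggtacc
Klf3 promoter, chr5:64803024-64803224, plus strand: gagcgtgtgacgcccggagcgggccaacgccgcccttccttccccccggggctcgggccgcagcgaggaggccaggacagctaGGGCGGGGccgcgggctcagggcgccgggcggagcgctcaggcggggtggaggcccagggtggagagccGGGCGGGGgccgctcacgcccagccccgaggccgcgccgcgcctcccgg
Klf10 upstream promoter, chr15:38300814-38301014, minus strand: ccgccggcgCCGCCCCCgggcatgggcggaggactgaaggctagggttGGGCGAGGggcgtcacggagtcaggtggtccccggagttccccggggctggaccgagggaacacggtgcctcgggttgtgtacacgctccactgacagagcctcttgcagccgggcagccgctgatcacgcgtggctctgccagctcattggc
Klf13 promoter, chr7:63939009-63939209, minus strand: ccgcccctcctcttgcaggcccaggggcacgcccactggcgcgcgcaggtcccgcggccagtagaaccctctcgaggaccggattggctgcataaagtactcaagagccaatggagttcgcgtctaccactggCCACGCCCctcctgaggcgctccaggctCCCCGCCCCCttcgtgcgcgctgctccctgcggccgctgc
Klf1 second exon, chr8:84903162-84903362, plus strand: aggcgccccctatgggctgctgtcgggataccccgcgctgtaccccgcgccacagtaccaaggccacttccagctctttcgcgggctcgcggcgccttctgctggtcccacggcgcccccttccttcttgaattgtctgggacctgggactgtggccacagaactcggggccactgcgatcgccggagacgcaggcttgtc
Klf2 upstream distal region, chr8:72277302-72277502, plus strand: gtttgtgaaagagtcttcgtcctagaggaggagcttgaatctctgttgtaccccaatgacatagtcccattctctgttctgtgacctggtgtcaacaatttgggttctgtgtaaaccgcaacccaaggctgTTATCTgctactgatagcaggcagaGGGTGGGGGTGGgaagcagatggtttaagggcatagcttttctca

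The CACCC box occurred in 9 of the 12 promoter windows of the KLF genes (75%), against 56.9% of all 9947 promoter regions. It was absent from the windows of Klf6, Klf2 and the second exon of Klf1. No promoter window of the 6 genes held GATA, a motif found in 7% of all promoter regions. Among the 21 distal regions, 5 held GATA (23.8%, against 39% of all distal regions), 4 of them at Klf13 and 1 at Klf2. The E-box CANNTG was in 19 of the 21 (90.5%, against 70%) and the CACCC box in 6 (28.6%, against 23%). These matches are descriptions of the letters and not of binding.

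Promoters of 5 of the 6 genes were listed in all 10 libraries, a state shared by 5800 of 21827 protein-coding genes (26.6%). Klf2 was the exception, with 8 libraries. Of the 39 regions, 10 were in every library (25.6%, against 21.5% of all regions), namely 6 promoter regions of Klf1, Klf3, Klf6, Klf10 and Klf13, the promoters of Gcdh and Dnase2a beside Klf1, and 2 distal regions of Klf13. A further 8 regions were in a single library. By class, 8 of the 18 promoter regions (44.4%) and 2 of the 21 distal regions (9.52%) were in every library, near the 50% of promoter and 6.64% of distal regions genome-wide, and the map of all regions by library shows them.

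**Figure D1:**
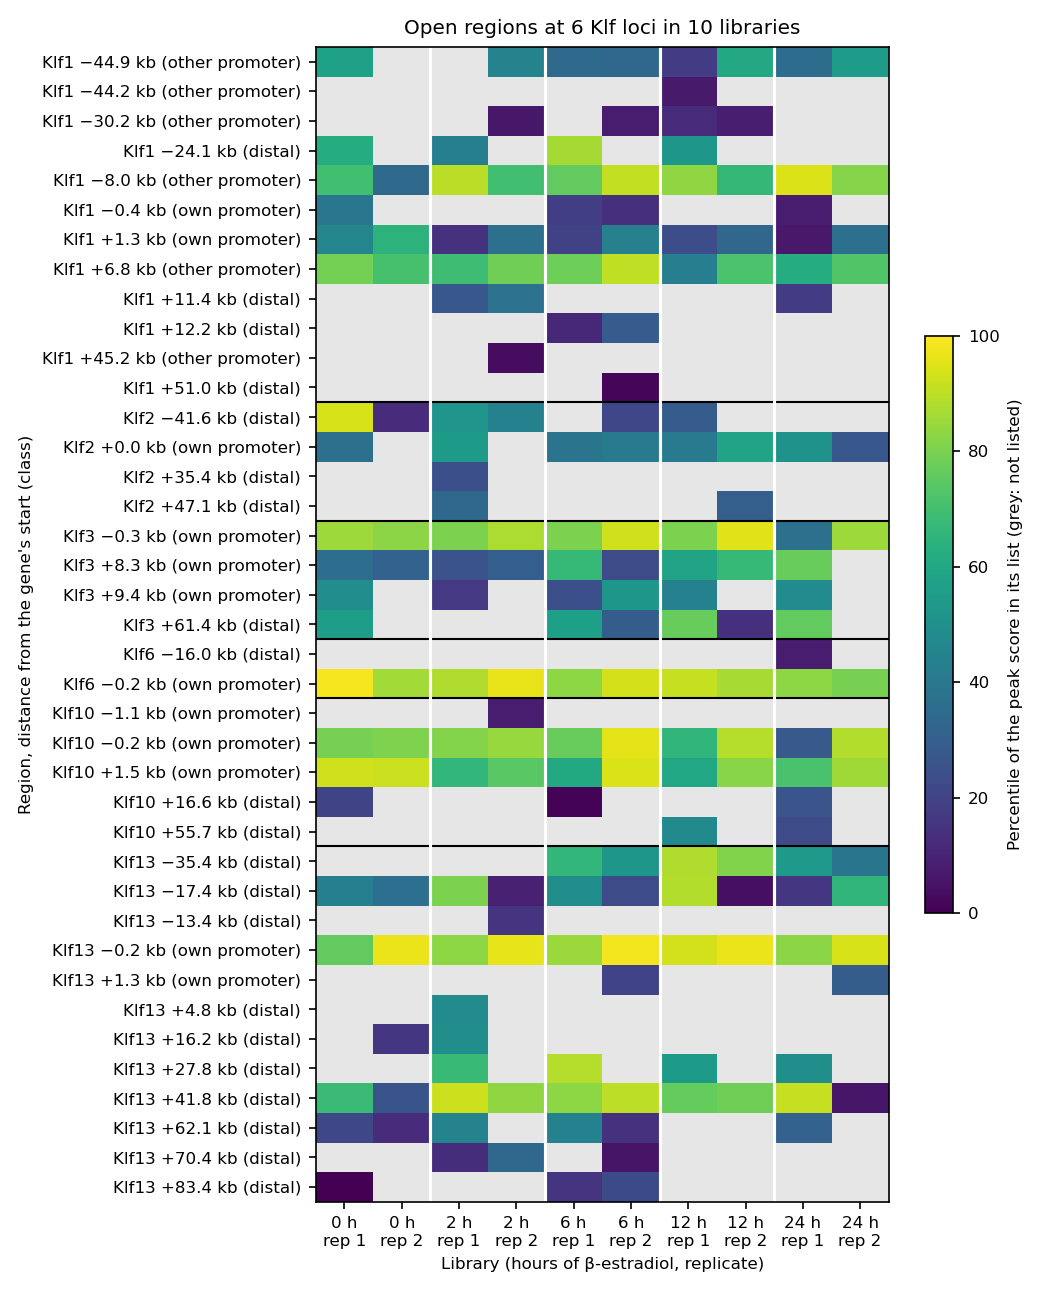
Score percentile of the 39 open regions (rows, grouped by gene and named by distance from its start, minus for upstream) in the 10 libraries (columns), with grey where no peak was listed. The main promoter regions of Klf6, Klf10, Klf3 and Klf13 run across all columns, whereas the row for Klf13 −35.4 kb begins at 6 h and that for Klf2 −41.6 kb ends after 12 h.

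Klf6 had the simplest locus. Its promoter region (chr13:5860987-5861614, 0.2 kb upstream of the start) was at the 98.6th and 86th percentile at 0 h, 88.1 and 96.6 (2 h), 83.1 and 93.4 (6 h), 91.3 and 86.9 (12 h), and 83.2 and 79.6 (24 h) in replicates 1 and 2. Both 24 h libraries were below both 0 h libraries, an order whose share among all regions was not counted. The 10 values spanned 19 points, where the median span was 44.1 points among the 4970 promoter regions present in all libraries. The difference of 24 h from 0 h, −10.9 ± 6.26 percentile points (SE), did not pass limma's test (adjusted p = 1), and it was −4.6 without 0 h replicate 1 and −17.2 without 0 h replicate 2. One weak distal region, 16.0 kb upstream, was listed in 24 h replicate 1 alone, at percentile 8.07.

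Klf13 had the promoter with the highest median percentile of the 6 genes (93.6). The region chr7:63938613-63940052 lay across and upstream of the start, with percentiles of 75.9 and 97 (0 h), 83.1 and 96.3 (2 h), 84.8 and 98.4 (6 h), 93.1 and 97.2 (12 h), and 82.7 and 94.1 (24 h). Replicate 2 stood above replicate 1 at 5 of 5 time points, and the values of 0 h and of 24 h overlapped. The 24 h difference was 1.96 ± 7.4 points (limma adjusted p = 1). A weaker region in the first intron, 1.3 kb downstream, was listed in 6 h replicate 2 and 24 h replicate 2 only, at percentiles 20.3 and 29.5.

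Klf3 was open at both of its annotated starts. The region 0.3 kb upstream of the first start (chr5:64802706-64803548, inside the noncoding gene Gm20033) was at 85.2 and 82.7 (0 h), 80.3 and 87.8 (2 h), 80.4 and 92.9 (6 h), 80.3 and 95.4 (12 h), and 37.1 and 85.5 (24 h). A single library, 24 h replicate 1, was low. In the first intron, 625 bp upstream of the second start, another region (chr5:64811341-64812114) was at 36 and 31.4 (0 h), 25.6 and 29.8 (2 h), 67.1 and 22.8 (6 h), 58.5 and 67.1 (12 h), and 76.9 in replicate 1 at 24 h, with no peak in 24 h replicate 2. Those replicate 1 values were above all 4 values of 0 and 2 h from 6 h on, whereas replicate 2 had a high value at 12 h alone. This order was seen in the values first, and its share among all regions was not counted. With every list cut to the length of the shortest, the region was in 7 libraries, without 2 h replicate 1 and 6 h replicate 2. One more region, 411 bp downstream of the second start, was listed in 6 libraries, in replicate 1 at every time point and in replicate 2 at 6 h only, with percentiles from 16.6 to 53.

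Klf10 was likewise open at both starts. The upstream region (chr15:38300602-38301292, 0.2 kb before the first start) was at 79.5 and 80.5 (0 h), 81.5 and 84.6 (2 h), 76.9 and 96 (6 h), 65.7 and 89 (12 h), and 28 and 88.6 (24 h). The other region (in the first intron, before the second start) was at 92.9 and 92.1 (0 h), 66.3 and 74.5 (2 h), 60.7 and 94.5 (6 h), 59.5 and 82.1 (12 h), and 71.2 and 85.7 (24 h). Here 7 of the 8 treated libraries were below both 0 h values and 6 h replicate 2 was above them. How many regions genome-wide share such an order was not counted. The fitted 24 h differences were −21.7 ± 18.1 points upstream and −14.1 ± 14.6 points downstream (limma adjusted p = 1 for each). The downstream difference was −6.81 without 24 h replicate 1 and −21.3 without 24 h replicate 2.

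The study had also designed 3 guide RNAs for dCas9 at the Klf10 promoter, and they show where the open region lies relative to the targeted DNA. They match GRCm38 at chr15:38300923-38300942 and chr15:38300945-38300964 on the minus strand and chr15:38300980-38300999 on the plus strand. These sites are 18, 40 and 75 bp from the median summit of the upstream region. The paper states that promoter guides were placed near the accessible chromatin without overlapping it. All 3 sites lie within the upstream region as merged here, whose width depends on the window set around each summit. Each guide is printed with its genomic PAM in capitals.

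Klf10 guide 1: gtggtccccggagttccccgGGG
Klf10 guide 2: gcgaggggcgtcacggagtcAGG
Klf10 guide 3: agtcctccgcccatgcccggGGG

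At 24 h the differences at the Klf3 and upstream Klf10 promoters rested on 1 library. Within replicate 1 the 24 h value minus the 0 h value was −48.1 points at Klf3 and −51.4 at Klf10, and within replicate 2 it was 2.8 and 8.04. Without 24 h replicate 1 the fitted differences were 1.52 and 8.58 points, of the opposite sign. That library held the lowest of the 10 values at 12.3% of the 4970 promoter regions present in all libraries. The promoters most like these over the 10 libraries, by Pearson's r of the percentile, were Dennd2c (0.981) and Csnk1a1 (0.972) for Klf3 and Mesd (0.980) and Sypl (0.978) for Klf10. For the downstream Klf10 region they were Tm9sf2 (0.914) and Ctdspl2 (0.907), for Klf6 Prdm10 (0.893) and Kdm8 (0.864), and for Klf13 the shared promoter of Bbs12 and Cetn4 (0.936) and Cirbp (0.915). All these correlations share the same 10 lists, and they were picked as the highest among all promoters in every library. Pearson's r compares neither level nor size of change. At Klf3 and upstream Klf10 it leans on the 1 low value in 24 h replicate 1, and r without that library is not given. Mesd and Sypl stayed at percentiles of 87.9 to 99.7 and 92.2 to 99.8, where the upstream Klf10 region ran from 28 to 96.

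Klf1, the erythroid member of the family, had no strong promoter peak. Close to its start, a region (chr8:84900880-84902127) was listed in 4 libraries only, at 39.4 in 0 h replicate 1, 18.6 and 13.8 (6 h), and 7.53 in 24 h replicate 1. Their summits were spread over 747 bp, and no time course can be read from them. The region in every library lay instead in the second of 3 exons (chr8:84902797-84903618), with summits 1119 to 1440 bp downstream of the start, and it counted as a promoter region because its edge came within 1 kb.

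That exonic region of Klf1 stood at a lower percentile in every treated library than at 0 h. Its percentile was 45.5 and 64.5 (0 h), 14.2 and 37 (2 h), 19.6 and 43.6 (6 h), 23.5 and 33.2 (12 h), and 6.9 and 36.7 (24 h). All 8 treated libraries were below both 0 h libraries, so the groups did not overlap. This was the case for 1 of the 10 KLF locus regions present in all libraries, and for 0.995% of the 6234 such regions genome-wide. It was looked at after its values were seen. With every list cut to the length of the shortest, both 0 h libraries and 3 of the 8 treated ones listed it, and the count of genes with a promoter in all libraries fell from 5 to 4. Replicate 2 was again above replicate 1 at 5 of 5 time points, and the 24 h value minus the 0 h value was −38.6 points within replicate 1 and −27.8 within replicate 2. The contrasts with 0 h, which share the 0 h libraries, were −29.4, −23.4, −26.7 and −33.2 points at 2, 6, 12 and 24 h, each with an SE of 21.5, and limma gave adjusted p-values of 0.999 at 2 h and 1 at the other times. The 24 h difference was −18.3 without 24 h replicate 1 and −48.1 without 24 h replicate 2. The promoters most like it in course were Rad23b (r = 0.887) and Serf2 (0.866). Their levels were higher, at percentiles of 69.9 to 98.4 and 94.2 to 99.7.

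Klf2 had a promoter of middling rank that was missing from 2 early libraries. The region (chr8:72318705-72319511, over the first exon) was at 37.1 in 0 h replicate 1, 54.3 in 2 h replicate 1, 38.3 and 41.4 (6 h), 41.5 and 58.5 (12 h), and 51.4 and 27.1 (24 h). It was not listed in replicate 2 of 0 h or of 2 h. The listed values of 0 and 2 h were inside the range of the later ones, and since 1 library at 0 h had the region it counted neither as gained nor as lost.

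**Figure D2:**
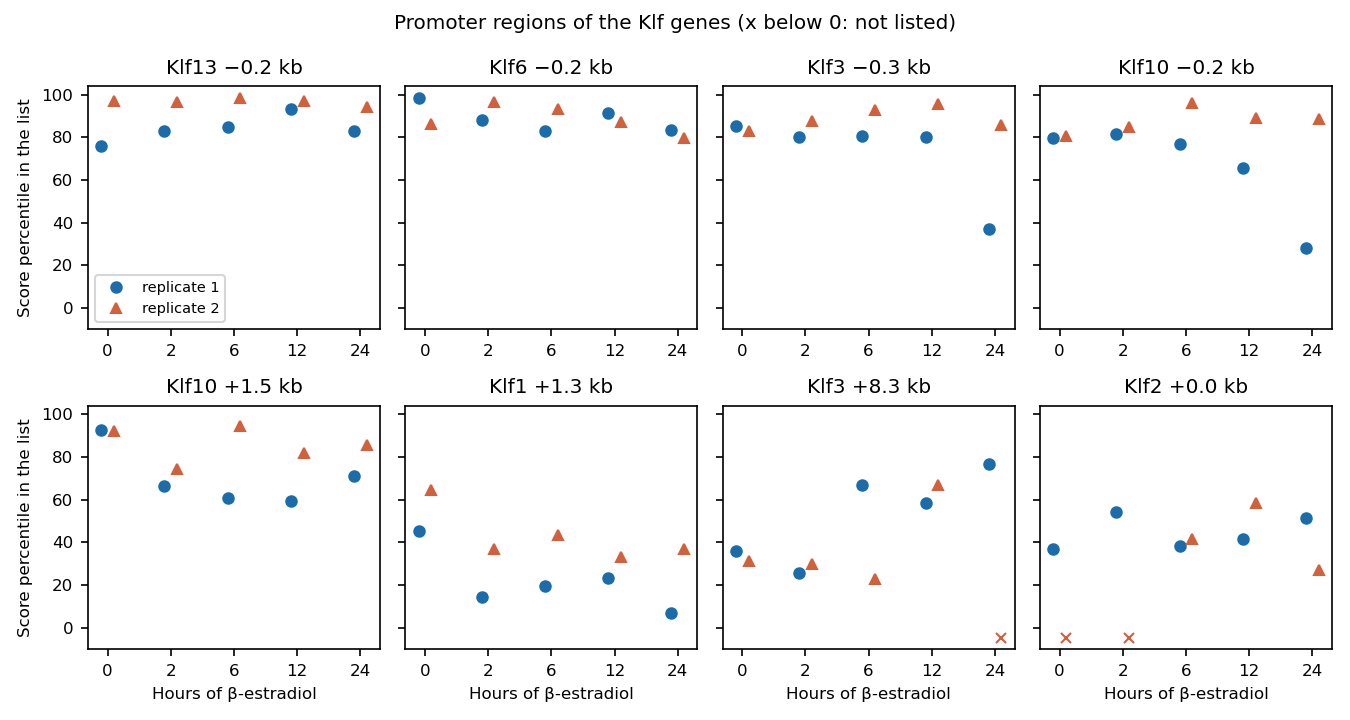
Score percentile within its list (vertical axis) of the 8 promoter regions listed in most libraries against hours of β-estradiol (horizontal axis, evenly spaced), with circles for replicate 1, triangles for replicate 2 and crosses below 0 where no peak was listed. Klf6 and Klf13 stay above 75, Klf3 −0.3 kb and Klf10 −0.2 kb have their lowest value in 24 h replicate 1, and the Klf1 +1.3 kb values after 0 h lie at 43.6 or lower.

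None of the 10 KLF locus regions present in all libraries passed the test for a change in percentile. Limma with Benjamini-Hochberg adjustment over 6234 regions called 0 of them (0%) with a trend over the time points, and 0% at 2, 6, 12 or 24 h against 0 h. The count at an unadjusted limma p under 0.05 was 294 regions for the trend and 186, 218, 170 and 270 for the 4 time points. Each count was less than 0.05 of the 6234 regions, the share that such a cut-off passes where nothing changes. Only the 24 h contrast held a KLF locus region. That region was the promoter of Gcdh, a mitochondrial dehydrogenase of lysine breakdown, 8.0 kb upstream of Klf1, which differed by 36.2 ± 15.9 points (limma adjusted p = 1). Its values were 69.7 and 34.7 (0 h), 89.7 and 69.6 (2 h), 76.1 and 90.9 (6 h), 83.3 and 66.5 (12 h), and 94.8 and 82 (24 h).

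Replicate number ran through these values. Replicate 2 was above replicate 1 at all 5 time points in 3 of the 10 regions, at Klf10, Klf13 and Klf1, and in 8.52% of all regions present in every library. Conversely, of the 26 KLF locus regions listed in 3 or more libraries, 3 were in replicate 1 lists only (11.5%, against 2.54% of all regions) and 0 in replicate 2 lists only (1.36% of all regions). They lay 27.8 kb downstream of the Klf13 start, 24.1 kb upstream of Klf1 in an intron of Syce2, and 16.6 kb downstream of Klf10. The Klf13 intronic region was at 67.8, 88.8, 54.6 and 49.3 in replicate 1 of 2, 6, 12 and 24 h. The Syce2 intron region was at 62, 43.1, 86.6 and 52.8 in replicate 1 of 0, 2, 6 and 12 h. No replicate 2 library listed either one, so neither can be placed in time.

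Distal regions were unevenly shared among the genes. Klf13 had 10, Klf1 4, Klf2 3, Klf10 2, and Klf3 and Klf6 1 each. The median was 2 (quartiles 1 and 4) for 5808 protein-coding gene entries with a promoter in all libraries. Entries that share a gene name were counted singly here and once among the 5800 genes above. Klf13 also spans the most DNA of the 6, at 52565 bp, and longer loci can hold more regions. Besides the 2 in all 10 libraries, 14 of the 21 distal regions were in 2 to 9 libraries and 5 in 1.

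**Figure D3:**
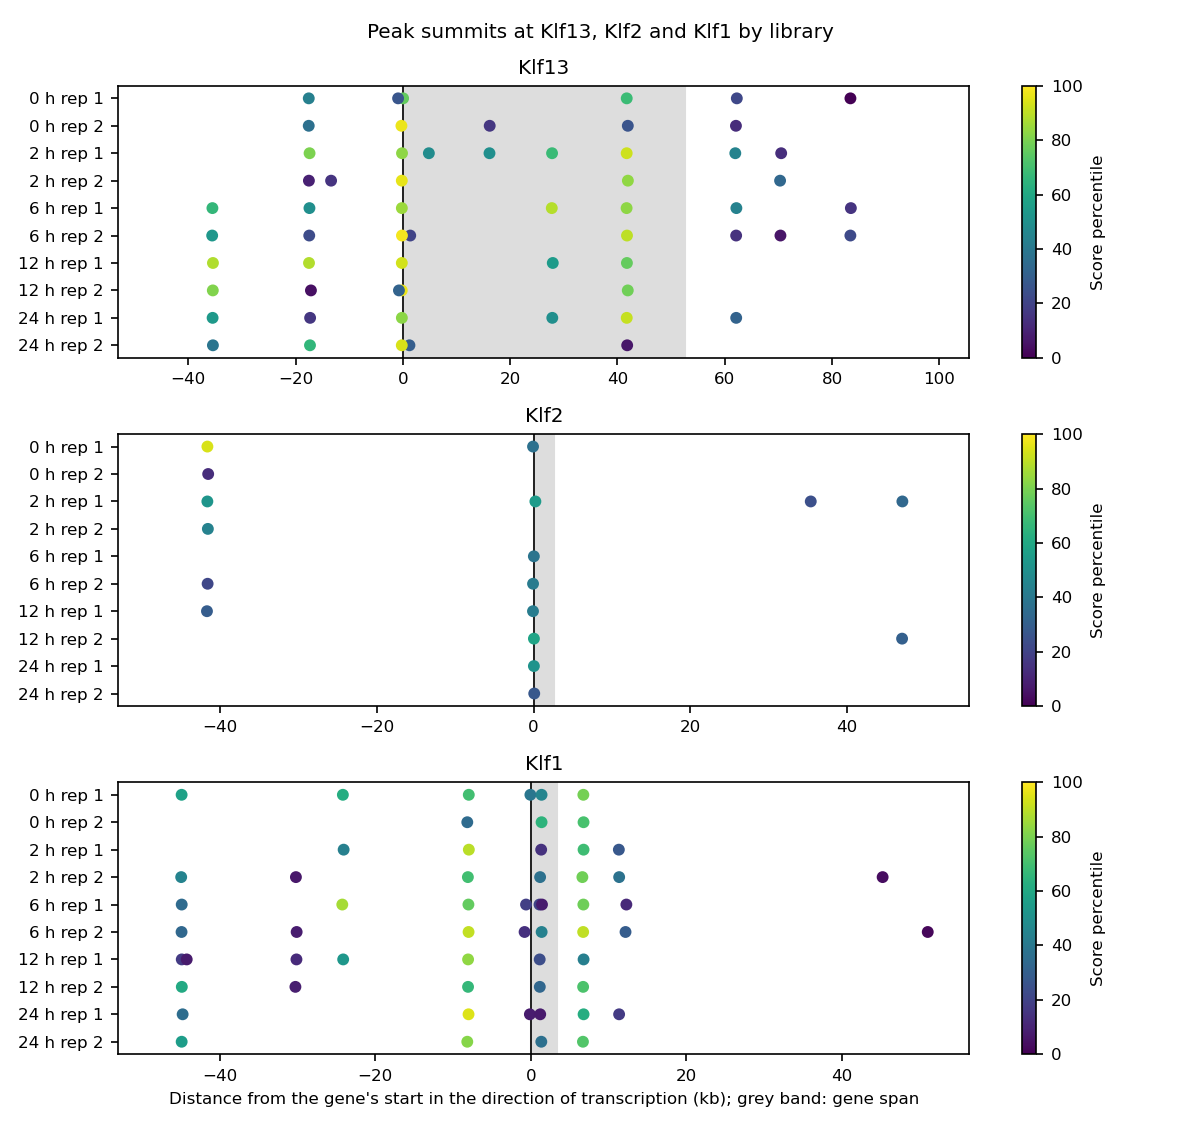
Peak summits at Klf13, Klf2 and Klf1, by distance from the gene's start in the direction of transcription (horizontal axis, kb) and by library (rows, 0 h at the top), coloured by score percentile, with the gene span in grey. Summits recur at the same distances in Klf13, and the column 35.4 kb upstream holds the 6 libraries from 6 h on and none before.

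A region 35.4 kb upstream of Klf13 (intergenic, with Klf13 as the nearest coding start) was listed only from 6 h on, and no test covered it. It was in neither library at 0 h or 2 h and in both at 6, 12 and 24 h. The percentiles were 66.2 and 53.1 (6 h), 88 and 81.1 (12 h), and 53.6 and 38.8 (24 h) in replicates 1 and 2. Both libraries at 12 h were above the other 4, and the order of the replicates was the same at the 3 time points. The 6 summits fell within 144 bp. Genome-wide 13 of 28981 regions (0.0449%) had this pattern, which was singled out after the values were seen.

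The opposite course was seen 41.6 kb upstream of Klf2 (chr8:72277082-72277737, intergenic, with Gm10282 as the nearest coding start). Percentiles were 94.1 and 12.6 at 0 h and 52 and 43.8 at 2 h. Later only 6 h replicate 2 (21.2) and 12 h replicate 1 (29) listed it, and neither library did at 24 h. The 2 libraries at 0 h were far apart, so the starting level is uncertain. Its window, printed above, held 1 GATA match and 2 to the CACCC box, which share letters, and 1 E-box.

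Both distal regions present in all libraries were at Klf13. The one in the first intron, 41.8 kb downstream of the start (chr7:63896726-63897466), was at 68.3 and 25.9 (0 h), 92.5 and 83.3 (2 h), 82.9 and 90.1 (6 h), 76.4 and 78.2 (12 h), and 91.3 and 5.89 (24 h). The one 17.4 kb upstream (chr7:63955794-63956705), with 2 GATA matches in its window, was at 43.1 and 36.6 (0 h), 80.1 and 9.1 (2 h), 49.3 and 22.9 (6 h), 88.3 and 4.11 (12 h), and 16 and 65.8 (24 h). The intronic region was higher in 7 of the 8 treated libraries than in either 0 h library, the exception being 24 h replicate 2. The share of all regions with such an order was not counted. At 2, 6 and 12 h both libraries were higher, with differences of 40.7, 39.4 and 30.1 points, each with an SE of 23.8, that did not pass limma's test (adjusted p of 0.999, 1 and 1). At 24 h the libraries disagreed by nearly the whole scale.

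**Figure D4:**
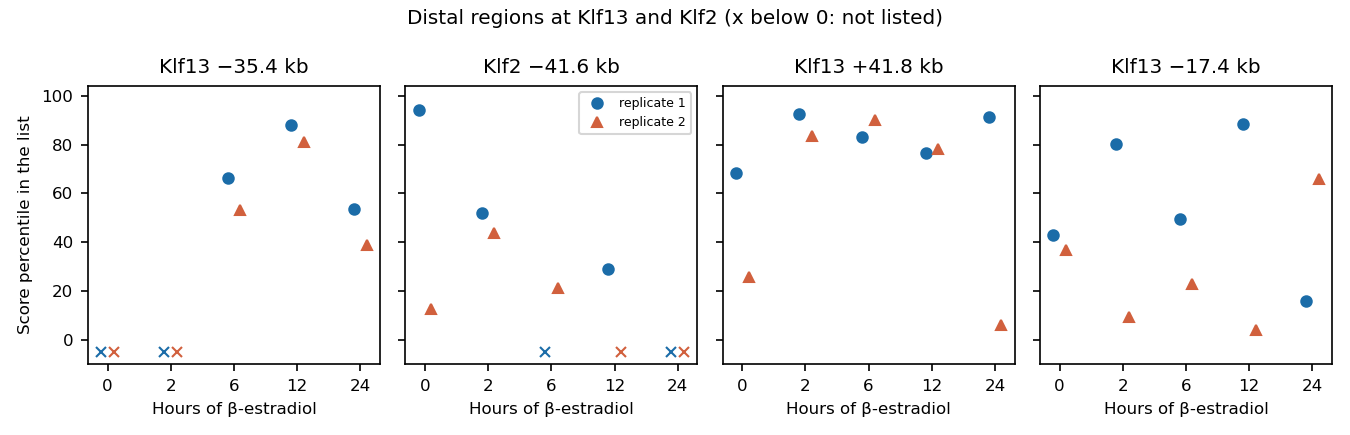
Score percentile within its list (vertical axis) of 4 distal regions at Klf13 and Klf2 against hours of β-estradiol (horizontal axis, evenly spaced), with circles for replicate 1, triangles for replicate 2 and crosses below 0 where no peak was listed. Klf13 −35.4 kb is listed only from 6 h on, Klf2 −41.6 kb is not listed at 24 h, and replicates of the other regions are up to 85.5 points apart at 24 h.

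A region was counted as gained when both libraries of a time point listed it and neither 0 h library did, and as lost in the reverse case. At 2 h 2 of the 39 regions were gained (5.13%, against 2.67% of all regions) and 0 lost (against 1.15%). At 6 h 2 were gained (5.13%, against 4.08%) and 0 lost (against 0.759%). At 12 h 2 were gained (5.13%, against 2.47%) and 1 lost (2.56%, against 1.88%), and at 24 h 1 was gained (2.56%, against 1.71%) and 1 lost (2.56%, against 3.51%). These comparisons share the 0 h libraries, and 2 libraries against 2 cannot give an exact permutation p under 0.33, so no test was made. With lists of equal length, 0, 1 and 1 regions were gained at 2, 6 and 12 h and 2 were lost at 6 h. Counts of 1 or 2 regions do not set the KLF loci apart from the genome.

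Klf13 −35.4 kb accounted for a gain at 6, 12 and 24 h, and Klf2 −41.6 kb for the loss at 24 h. The other changes were weak or passing. The region 70.4 kb downstream of the Klf13 start was gained at 2 h at percentiles 13.2 and 33.4 and was listed later only in 6 h replicate 2. Beside Klf1, a region 11.4 kb downstream was gained at 2 h (27 and 37.6) and returned in 24 h replicate 1, and one 12.2 kb downstream was gained at 6 h alone (11.4 and 29), both in introns of Dnase2a and Mast1. The Syce2 promoter, 30.2 kb upstream of Klf1, was gained at 12 h at 12.1 and 8.42, having been listed in replicate 2 of 2 and 6 h. The region lost at 12 h, 62.1 kb downstream of the Klf13 start, was at 21.8 and 12.6 at 0 h. It was also listed in 2 h replicate 1 (44.9), in both 6 h libraries (44 and 14.3) and again in 24 h replicate 1 (31.6).

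Among the remaining distal regions, the one past the end of Klf3 was the most frequent. It lay 61.4 kb downstream of the first start (chr5:64864509-64865107) and was listed in 6 libraries, at 55.9 in 0 h replicate 1, 56.4 and 29.4 (6 h), 76.8 and 13.5 (12 h), and 75.8 in 24 h replicate 1. Its window held 3 matches to the CACCC box. Replicate 1 was above replicate 2 at both time points with 2 values. At Klf10 the regions 16.6 and 55.7 kb downstream were in 3 and 2 libraries, all replicate 1, and at Klf2 those 47.1 and 35.4 kb downstream, in introns of Eps15l1, were in 2 and 1.

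In the rest of the KLF and SP family each promoter was either in all 10 libraries or in none. Of 20 further genes, the promoters of Klf9, Klf11, Klf16, Sp1, Sp2, Sp3 and Sp4 were in all 10 libraries, and those of the other 13, among them Klf4, Klf5 and Klf7, were in none. Of all 21827 protein-coding genes, 5800 were in all 10 libraries, 3911 in some and 12116 in none. The median percentile was highest at Sp1 (99.5), Sp2 (97.2), Sp4 (94.1) and Klf11 (93.6), of which Klf11 equalled Klf13 (93.6), and lowest at Sp3 (31.6), near the Klf1 exon (34.9). No promoter of the family was gained or lost at any time point. Among the 21827 genes, 144, 228, 163 and 105 had a promoter gained at 2, 6, 12 and 24 h. Those with a promoter lost numbered 74, 5, 65 and 115. Such changes were rare among all genes, so their absence here does not set the family apart.

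Of 8 genes known as KLF1 targets, the annotation used here matched 7. Promoters of 6 of the 7 were in some libraries, a state of 17.9% of protein-coding genes and of 5 of the 10 erythroid genes, and 0 of the 7 were in all libraries, against 26.6% of protein-coding genes. The adhesion receptor Cd44 was gained at 6, 12 and 24 h, states reached by 1.04%, 0.747% and 0.481% of protein-coding genes, and it was in 1 library at 2 h. Icam4, a red cell adhesion protein, was in 8 libraries and the membrane skeleton gene Add2 in 4. Bcl11a, E2f2 and Dmtn were listed in 6 h replicate 2 alone, which had the longest list, and the anion exchanger Slc4a1 in none.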

How the data were processed

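ATAC-seq was performed by the authors in 10 libraries, 2 per time point, grouped by the sample titles. According to the labels, reads with a single position in mm10 were kept, with Bowtie 1.0.0, Picard and MACS2 named in the submitters' processing notes. The paper's methods give Bowtie2 instead, and a Tn5 shift is not given in the sources used here. Scores in the deposited summit lists are −log10 q-values, assigned by MACS2 to each peak within 1 library (lowest 1.30, a q-value of 0.0499). They rise with depth, which is unknown, so percentiles within a list were used.

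Summits on chromosomes 1 to 19, X and Y were widened by 250 bp per side and merged over the libraries. A region took the highest percentile of a library's summits. Annotation was GENCODE M21 (basic, 41438 coding starts). Percentiles of the 6234 regions in all 10 libraries were fitted with limma 3.58.1 (trend, Benjamini-Hochberg, threshold 0.05) across all regions, after the script was tested on simulated data. Python 3.11.15 and pysam 0.24.0 were used. Same-numbered replicates deviated together in 10 of 10 pairs of time points (r 0.149 to 0.326), so the numbers were taken to pair the libraries. The fits and SEs printed above have no replicate term, so any offset between replicate numbers is part of their spread. A replicate block was fitted as an alternative. Named regions were promoter regions, gained, lost or test-positive regions, and the 2 most frequent distal regions per gene, with further ones named as seen. The genes, lists and tests were chosen with earlier results of these data known. Alternatives varied the windows, flanks, list sizes, score minimum, promoter distance, scale, block and libraries. The sequences of some regions are not reported here.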

Additional observations from a re-analysis of the deposited data

How the results depend on the processing

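With every list cut to the 10698 strongest peaks, 0, 1 and 1 regions were gained at 2, 6 and 12 h and 2 were lost at 6 h. The Klf13 region 35.4 kb upstream stayed in all 6 libraries from 6 h on, the Klf2 region 41.6 kb upstream was then listed only at 0 and 2 h, and the Klf1 exonic region fell to 5 libraries, leaving 4 genes with a promoter in all lists. That count was also 4 with windows of 100 bp per side and with promoters within 0.5 kb. With a flank of 25 kb, 1, 0 and 0 regions were gained at 6, 12 and 24 h and 0 lost at 24 h, because the upstream Klf13 and Klf2 regions and the Syce2 promoter lie outside it. With 100 kb, 1, 2 and 2 were lost at 2, 12 and 24 h.

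Leaving out 1 library eases the rule, and gave 2 to 6, 2 to 8, 2 to 5 and 1 to 5 gained and 0 to 4, 0 to 1, 1 to 4 and 1 to 3 lost at 2, 6, 12 and 24 h. Each of the 10 libraries, left out, moved at least 1 of these counts by over 1.5 times. The highest counts came without either 2 h library, without 0 h replicate 1 (8 gained at 6 h, 5 at 12 h), without 12 h replicate 2 (5), without 24 h replicate 2 (5 gained) and without 0 h replicate 2 (4 lost at 2 and 12 h, 3 at 24 h). Limma called 0 of the KLF locus regions in each of 19 alternatives. It called at most 2 of all regions in any setting and contrast, so these counts of 0 do not set the KLF loci apart. With a replicate block it also called 0, and the block changed no call. The 24 h difference at the Klf13 promoter changed sign without 0 h replicate 1 (−8.63 points), without 24 h replicate 2 (−3.72) and on a probit scale (−0.0408). At Klf3 and Klf10 it did so without 24 h replicate 1 (1.52 and 8.58), and over all left-out libraries it ran from −46.8 to 1.52 and from −52.0 to 8.58, against −8.63 to 12.6 at Klf13, −17.2 to −4.6 at Klf6, −21.3 to −6.81 at the downstream Klf10 promoter and −48.1 to −18.3 at the Klf1 exon. The cause was not tested. Depth limits every absence to "not called".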
